A study of Mus musculus with 156 samples.

Results

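The astrocyte genes described here were 32 genes listed by name because astrocytes express them, and each was read through its brightest probe, the one with the highest mean signal over all arrays. Of these, 31 genes had a named probe among the 19057 genes named on the array, and the remaining gene, *Clu*, which encodes the secreted chaperone clusterin, was not analysed here. The choice of probe did not use any response to a drug, but the genes were listed with earlier results of these data known. The paper names *Gjb6* as an astrocyte marker within a drug-responsive gene network, from data that include these arrays. For 29 of the 31 genes the mean signal lay above the median of all probes, and the exceptions were *Mlc1* at percentile 29.0 and *F3* at percentile 43.8.

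Astrocytes are the glial cells that clear glutamate from synapses, take up potassium and water, pass small molecules to each other through gap junctions, and store the glycogen of the brain. They carry adrenergic, serotonin and other receptors, and noradrenaline is a known signal for glycogen breakdown in them. After injury or inflammation they become reactive, which is usually recognised by higher GFAP and vimentin, the proteins of their intermediate filaments.

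Levels of mRNA were measured with whole-genome Illumina bead arrays in the striatum of C57BL/6J mice that had received 1 of 9 psychotropic drugs intraperitoneally, 1 time, and were killed after 1, 2, 4 or 8 h. The mice were adult males, aged 8 to 10 weeks in the methods and from 6 weeks in the sample labels, and each array held the pooled RNA of 2 mice, with 3 arrays for each drug and time. The arrays lay on 26 chips of 6 arrays, 18 in a first and 8 in a second chip set, and each drug was set only against vehicle arrays of the same time within the same chip set. Bulk striatum was used, so that fewer astrocytes and less RNA per astrocyte cannot be told apart.

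The antidepressants were bupropion, tranylcypromine and mianserin, each at 20 mg/kg. Tranylcypromine inhibits monoamine oxidase, mianserin blocks serotonin, histamine and adrenergic receptors, and bupropion inhibits dopamine uptake. The antipsychotics were clozapine at 3 mg/kg, risperidone at 0.5 mg/kg and haloperidol at 1 mg/kg. The anxiolytics were diazepam at 5 mg/kg, which acts on the GABA-A receptor, buspirone at 10 mg/kg, a serotonin receptor agonist, and hydroxizine at 10 mg/kg, a histamine receptor blocker. The vehicle was 1% Tween 80 for clozapine, risperidone, haloperidol and diazepam and saline for the other drugs. The first chip set held the antidepressants, the antipsychotics, 12 arrays of naive mice, 12 of saline and 12 of Tween 80, and its vehicle group pooled saline and Tween 80 to give 6 arrays at each time. The second chip set held the anxiolytics and 12 saline arrays, 3 at each time, so that diazepam was compared with saline although its own vehicle was Tween 80. The p-values measure the spread between arrays, each a pool of 2 mice, and this spread also holds differences between chips.

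The deposited median log2 signals, before normalization, ran from 7.67 to 9.21 in the first chip set and from 6.92 to 8.63 in the second. After quantile normalization each array correlated with its own group at 0.980 or more in the first chip set and at 0.954 or more in the second. Values below are log2 signals after that normalization, a change is a difference in mean log2 signal from the same-time vehicle with its standard error (SE), and a gene was called when its adjusted p in limma, over all 45279 probes, was under 0.05. A fold is the same change on the linear scale of the signal.

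The tissue held clear astrocyte signal. *Gfap*, the filament protein used most to mark astrocytes, ran from 10.54 to 12.33 (median 11.71) in the vehicle arrays of the first chip set and from 11.04 to 11.73 (median 11.38) in those of the second. *Aqp4*, the water channel of astrocyte endfeet, ran from 11.25 to 12.45 (median 12.04) and from 11.81 to 12.63 (median 12.16). The glutamate transporter *Slc1a2* (GLT-1) ran from 11.30 to 11.89 (median 11.57) and from 11.32 to 12.14 (median 11.74), and the glutamate transporter *Slc1a3* (GLAST) from 14.71 to 15.36 (median 14.97) and from 15.09 to 15.74 (median 15.48). Their mean signals stood at percentiles 92.5 (*Gfap*), 94.5 (*Aqp4*), 92.7 (*Slc1a2*) and 99.8 (*Slc1a3*) of all probes, and naive arrays held *Gfap* between 10.62 and 12.25.

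None of these defining markers was called for any drug when each chip set was fitted alone. The change of *Gfap* ran from -0.45 at 8 h after risperidone to 0.43 at 4 h after clozapine, and that of *Aqp4* from -0.36 at 8 h after tranylcypromine to 0.23 at 4 h after mianserin. Where a replicate or other arrays were left out, the *Aqp4* change at 8 h after tranylcypromine lay between -0.54 and -0.05. The change of *Slc1a2* ran from -0.36 to 0.40 and that of *Slc1a3* from -0.28 to 0.36. The lowest adjusted p over the 4 times for any drug was 0.452 for *Gfap*, 0.652 for *Aqp4*, 0.282 for *Slc1a2* and 0.272 for *Slc1a3*, in limma's F test. With 1 spread for all arrays of both sets *Slc1a2* and *Slc1a3* were called for diazepam, and in a model of drug and time with the chip as a fixed term *Slc1a2* was called for drug.

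**Figure D1:**
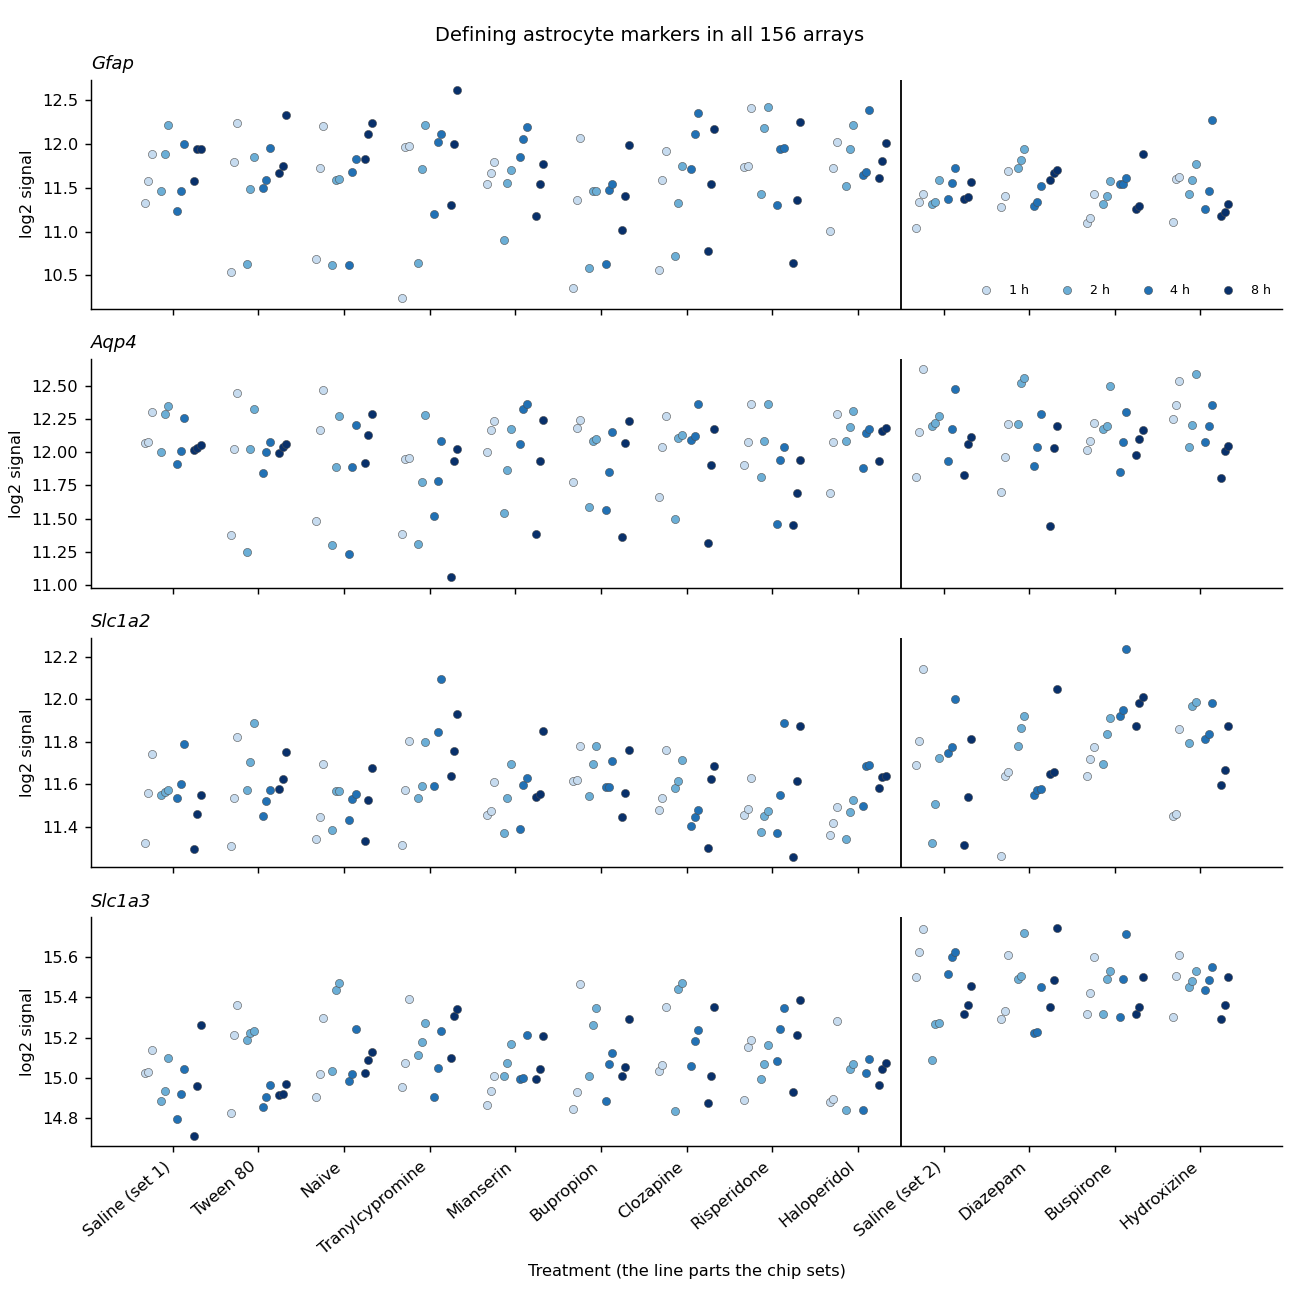
Each point is 1 array, its log2 signal on the vertical axis, for *Gfap*, *Aqp4*, *Slc1a2* and *Slc1a3* in all arrays, by treatment and, in darker blue, by later time. Drug, vehicle and naive arrays overlap for every marker. In the first chip set a lower band of *Gfap* and *Aqp4* arrays appears in most treatments but not in saline. Most arrays of that band lay on chips that carried no saline array.

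That lower band was shared by several members. In the first chip set, 21 of the arrays had *Mt3*, a brain metallothionein that binds zinc and copper, between 12.88 and 13.47, and the next array lay at 13.74. The 21 lowest arrays of *Atp1b2*, the astrocyte adhesion and sodium pump subunit, were the same 21 arrays, from 11.93 to 12.40 with the next at 12.54. Of the 21 lowest arrays, 20 were shared for *Gfap* and 20 for *Aqp4*. They were all 6 arrays on 2 of the chips and 4, 3, 1 and 1 arrays on 4 others. Out of 12 arrays each, they included 4 of bupropion, 4 of tranylcypromine, 3 of clozapine, 3 of naive mice, 2 of mianserin, 2 of risperidone, 2 of Tween 80, 1 of haloperidol and 0 of saline. The chips that held 6, 6, 4 and 3 of these arrays carried no saline array. The lack of saline in the band therefore cannot be told apart from the layout of the chips. The 4 tranylcypromine arrays were those of replicate 1. The 31 genes were also tested without these arrays, which left 4 calls at single times in the first chip set against 10 with them. The other gene lists were not tested without them.

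Among the 31 astrocyte genes, tranylcypromine changed 3 over the 4 times, which is 9.68% of them, against 1.59% of all probes called for that drug. Mianserin changed 2 (6.45%, against 3.26% of all probes). Since the genes were listed with earlier results of these data known, these shares do not test for an excess of astrocyte genes. For the other drugs 0 of 31 genes were called, against 1.22% of all probes for risperidone, 0.13% for haloperidol, 0.0508% for clozapine, 0.00442% for buspirone, 0.00221% for diazepam, 0% for bupropion and 0% for hydroxizine. At an unadjusted p under 0.05 in the same limma test the genes numbered 9 for tranylcypromine (11.1% of all probes), 7 for mianserin (13.5%), 5 for risperidone (8.5%), 4 for haloperidol (6.82%), 1 for bupropion (4.43%), 0 for clozapine (4.45%), 13 for diazepam (13.1%), 3 for buspirone (3.96%) and 5 for hydroxizine (4.92%).

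The genes did not move as a block. Over the 36 combinations of drug and time, their median change ran from -0.09 to 0.15, while the median of all probes ran from -0.02 to 0.02, and it was above 0 in 21 of the 36. Of 1116 single values, 74 were past 0.5 in either direction, 28 of 744 in the first chip set and 46 of 372 in the second. A change past 1 was found 7 times, for *Sparcl1*, *Ndrg2* and *Glul*, and none of these was called.

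**Figure D2:**
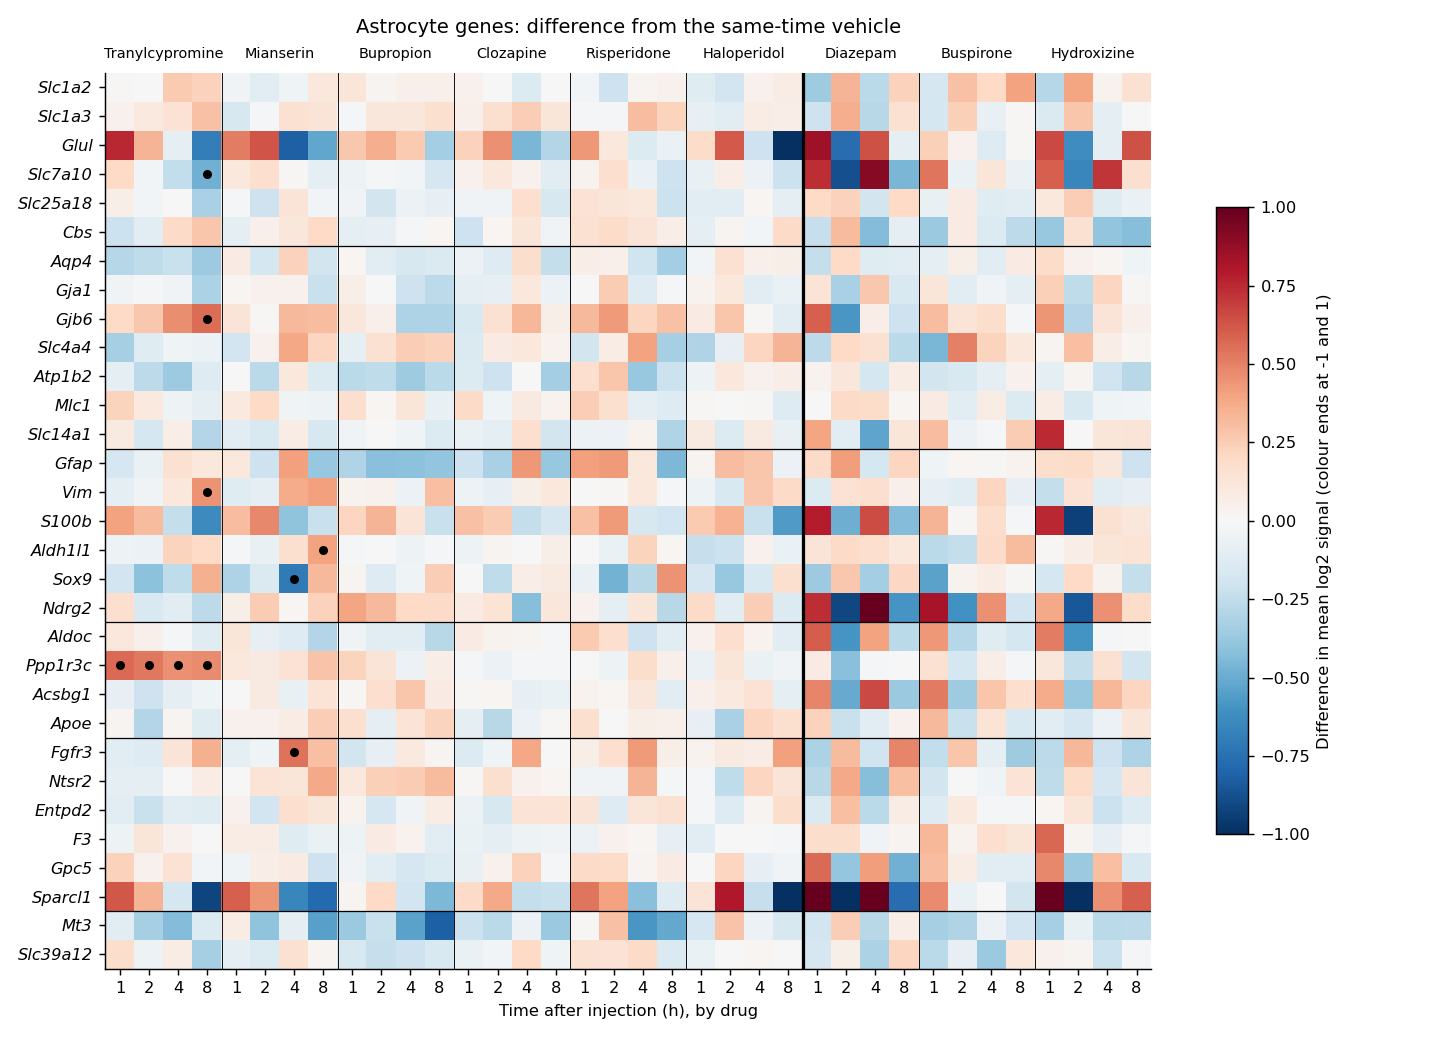
Each cell is the change in mean log2 signal of 1 astrocyte gene (row, grouped by role) at 1 time after 1 drug (column), from blue at -1 or below to red at 1 or above, and a black dot marks an adjusted p under 0.05 at that time. Dots are found for *Ppp1r3c* at all 4 times after tranylcypromine, for *Gjb6*, *Slc7a10* and *Vim* at 8 h after it, and for *Sox9*, *Fgfr3* and *Aldh1l1* after mianserin, and the deepest colours without a dot are those of *Sparcl1* and *Glul* at 8 h after haloperidol and of *Sparcl1* and *Ndrg2* in the second chip set.

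The clearest response was that of *Ppp1r3c* to tranylcypromine. *Ppp1r3c* encodes PTG, the subunit that targets protein phosphatase 1 to glycogen and promotes glycogen synthesis. It was higher than in vehicle at every time.

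At 1 h the tranylcypromine arrays held *Ppp1r3c* at 13.65, 13.60 and 13.93, against 13.07, 13.30 and 13.16 after saline and 13.17, 13.01 and 13.26 after Tween 80. At 2 h they held 13.46, 13.74 and 13.81, against 13.13, 13.27 and 13.13 after saline and 13.25, 13.01 and 13.05 after Tween 80. Every drug array was above every vehicle array at both times. At 4 h the values were 13.77, 13.21 and 13.52, against 13.10, 12.87 and 13.08 after saline and 13.07, 12.88 and 13.25 after Tween 80, and at 8 h they were 13.46, 13.24 and 13.39, against 12.79, 12.92 and 12.76 after saline and 12.94, 12.84 and 13.11 after Tween 80. The groups overlapped at 4 h by 1 Tween 80 array and did not overlap at 8 h.

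The change in *Ppp1r3c* was 0.57 ± 0.11 (SE, n = 3 against 6) at 1 h, a 1.48-fold higher signal, with an adjusted p of 0.00153 in limma. It was 0.53 at 2 h (1.44-fold, adjusted p = 0.00492), 0.46 at 4 h (1.37-fold, adjusted p = 0.0166) and 0.47 at 8 h (1.39-fold, adjusted p = 0.00611), each with an SE of 0.11. At these times 0.126%, 0.197%, 0.448% and 1.53% of all probes were called. Over the 4 times the adjusted p was 1.08e-09 in limma's F test, and the test of whether the change differed between times gave an adjusted p of 0.992. 

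Of the 12 tranylcypromine arrays, which ran from 13.21 to 13.93 with a median of 13.56, 10 were above the highest of the 24 vehicle arrays of *Ppp1r3c*, which ran from 12.76 to 13.30 with a median of 13.07. Naive arrays ran from 12.64 to 13.26. For the other 5 drugs of the first chip set the change lay between -0.07 and 0.29, all below the 0.46 to 0.57 after tranylcypromine, and the highest of them was that of mianserin at 8 h. The drugs of this chip set differed in *Ppp1r3c* with an adjusted p of 9.25e-07 in limma, a test that called 2 of the 31 genes and 2.25% of all probes. In the second chip set it called 0 of 31 genes and 0.00883% of all probes. The lowest change of *Ppp1r3c* in that set was -0.42, at 2 h after diazepam, and it was not called. Without the 21 arrays low in *Mt3* the gene was still called for tranylcypromine. Tranylcypromine arrays shared 0 chips with same-time vehicle arrays, so that no within-chip difference could be formed for this drug.

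**Figure D3:**
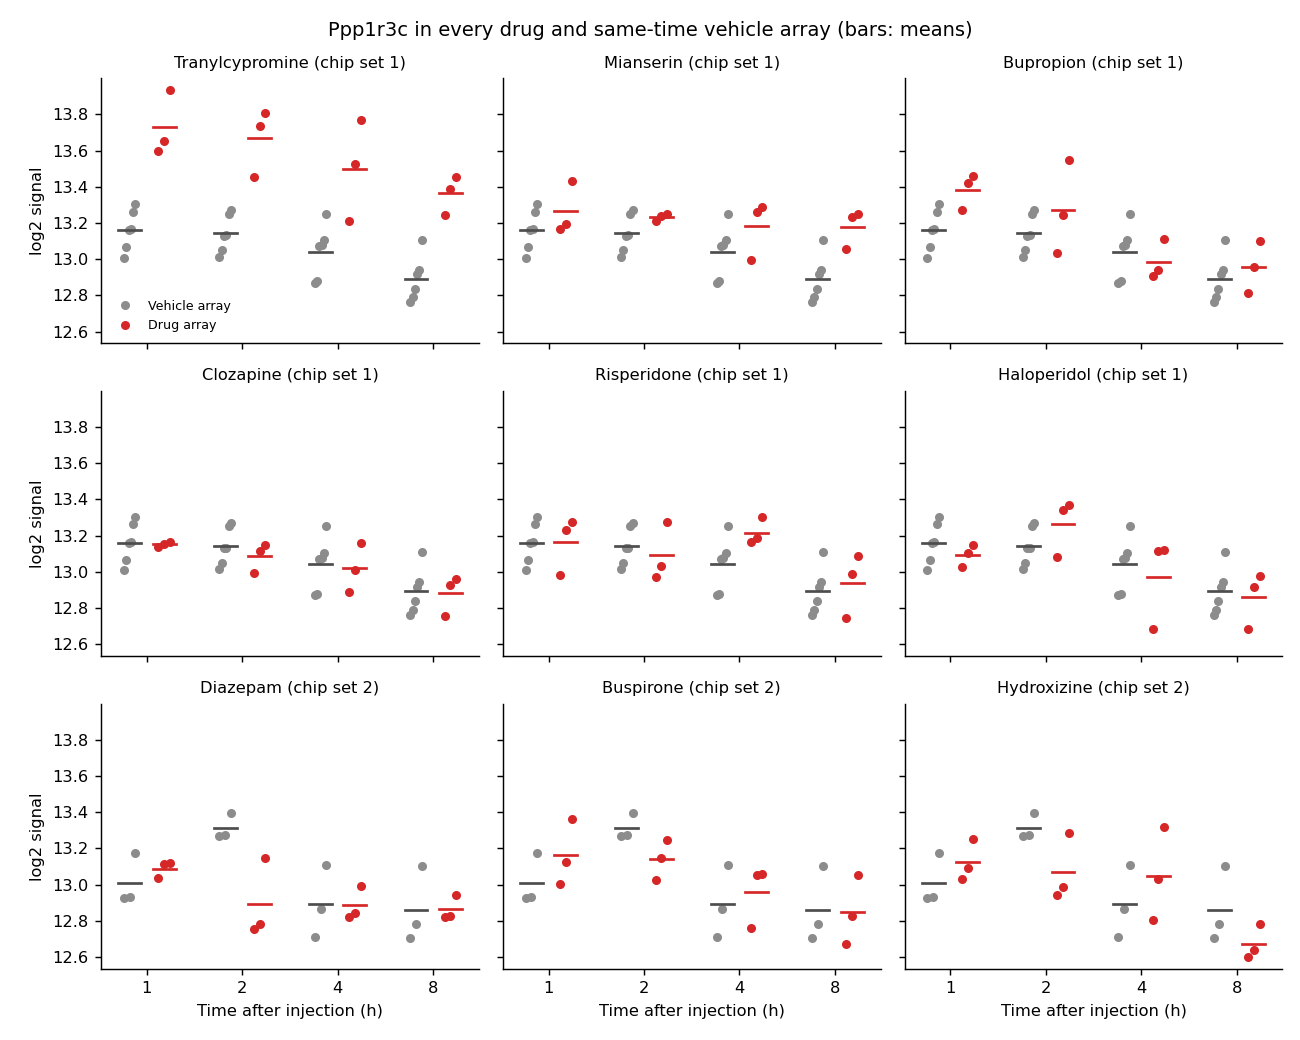
Each point is the log2 signal of *Ppp1r3c* on 1 array, grey for vehicle and red for the drug, by time after injection, with short bars at the means and 1 panel for each of the 9 drugs. In the tranylcypromine panel the drug means lie 0.46 to 0.57 above the vehicle means at all 4 times, while in the other panels the groups largely overlap. The lowest change is -0.42, at 2 h after diazepam.

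RefSeq (GRCm38.p6) places *Ppp1r3c* at chr19:36731731-36736604 on the minus strand, *Gjb6* at chr14:57123301-57133611 on the minus strand and *Vim* at chr2:13574311-13582826 on the plus strand. The promoters of these genes are given because all 3 genes were higher, in their brightest probe, at 8 h after tranylcypromine. The 250 bases before the start of each gene are printed 5′ to 3′ on the gene's own strand, from chr19:36736605-36736854, chr14:57133612-57133861 and chr2:13574061-13574310, with matches to the motifs searched in capitals.
Ppp1r3c: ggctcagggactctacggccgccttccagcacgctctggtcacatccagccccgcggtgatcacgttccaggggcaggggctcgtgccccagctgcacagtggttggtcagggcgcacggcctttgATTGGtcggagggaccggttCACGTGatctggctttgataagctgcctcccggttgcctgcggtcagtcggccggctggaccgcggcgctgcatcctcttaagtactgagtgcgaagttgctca
Gjb6: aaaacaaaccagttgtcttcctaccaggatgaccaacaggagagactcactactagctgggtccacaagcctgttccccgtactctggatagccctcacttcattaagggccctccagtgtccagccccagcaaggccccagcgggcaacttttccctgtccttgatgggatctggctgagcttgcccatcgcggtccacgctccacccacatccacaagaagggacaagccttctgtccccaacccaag
Vim: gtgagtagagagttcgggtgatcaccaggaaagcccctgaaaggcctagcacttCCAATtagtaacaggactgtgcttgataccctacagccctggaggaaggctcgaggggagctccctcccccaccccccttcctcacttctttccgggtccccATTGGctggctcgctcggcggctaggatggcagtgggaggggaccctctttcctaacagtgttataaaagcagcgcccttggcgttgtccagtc
The motifs, searched on both strands, were the E-box CACGTG, the cyclic AMP response element TGACGTCA and its shorter form TGACG, the CCAAT box CCAAT, and the palindromic glucocorticoid response element. The *Ppp1r3c* promoter held an E-box that begins 104 bases before the start, a motif found in 6.02% of 32851 promoters of the same length. It also held a CCAAT box on the other strand, 124 bases before the start, and *Vim* held 2 CCAAT boxes, a motif found in 33.8% of promoters. No match was found in *Gjb6*. The cyclic AMP response element occurred in 1.55% of all promoters, its shorter form in 17.8% and the glucocorticoid element in 0.0396%, with none in these windows.

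The gap junction gene *Gjb6*, which encodes a connexin enriched in astrocytes, was the second member called for tranylcypromine. At 8 h the drug arrays held 13.41, 13.85 and 13.22, against 13.11, 12.74 and 12.92 after saline and 12.87, 12.95 and 13.02 after Tween 80. All 3 drug arrays were above all 6 vehicle arrays. At 4 h the drug arrays held 13.44, 13.65 and 13.10 and overlapped with vehicle, which reached 13.27.

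The change of *Gjb6* was 0.20 at 1 h, 0.27 at 2 h, 0.46 at 4 h and 0.56 at 8 h, each with an SE of 0.15, and only that at 8 h was called (1.47-fold higher, adjusted p = 0.0359 in limma). Over the 4 times the adjusted p was 0.0096. The means rose from time to time, but the test that the change differed between times gave an adjusted p of 0.864. The drugs of the first chip set differed in *Gjb6* (adjusted p = 0.00188), and the values of the other drugs ran from -0.31 to 0.43. After risperidone *Gjb6* was 0.32, 0.43, 0.21 and 0.30 above vehicle (adjusted p over the times = 0.132), and after mianserin 0.13, 0.02, 0.32 and 0.31. Over all 36 combinations it was above vehicle in 28. The other main astrocyte connexin gene, *Gja1*, was not called for any drug, with changes from -0.33 to 0.27.

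*Slc7a10*, the transporter Asc-1 for small neutral amino acids such as serine and glycine, was the member that fell. At 8 h the tranylcypromine arrays held 11.02, 10.64 and 11.01, against 11.73, 11.15 and 11.42 after saline and 11.51, 11.27 and 11.15 after Tween 80. Every drug array lay below every vehicle array. The change was -0.48 ± 0.13 (SE, n = 3 against 6), a 1.40-fold lower signal (adjusted p = 0.0222), after 0.20, -0.03 and -0.24 at 1, 2 and 4 h. Over the 4 times the adjusted p was 0.0462, close to the threshold, and the test for a difference between times gave an adjusted p of 0.152.

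*Vim*, the filament protein vimentin, was called at 8 h after tranylcypromine but not over the 4 times. The drug arrays held 9.32, 9.43 and 9.44, against 8.80, 9.26 and 8.77 after saline and 9.11, 8.82 and 8.91 after Tween 80. All 3 drug arrays were above the vehicle arrays, the nearest of which was a saline array. The change was 0.45 ± 0.12 (1.37-fold higher, adjusted p = 0.026), after -0.10, -0.03 and 0.11 at the earlier times, and the adjusted p over the times was 0.161. A second, dimmer *Vim* probe did not rise at 8 h. It was at 0.02, 0.17, 0.08 and -0.06 (adjusted p over the times = 0.818 in limma's F test).

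At 8 h after tranylcypromine 9 of the 31 genes did not overlap with vehicle, against 5.97% of all probes, and the genes' median change was -0.09, with 12 higher and 19 lower. The array of replicate 2 at 8 h held the highest *Gjb6* and the lowest *Slc7a10* of its group. Without that array *Ppp1r3c* was the only gene called for this drug over the 4 times. Without the arrays low in *Mt3*, *Ppp1r3c* and *Gjb6* were called, and *Slc7a10* at 8 h was at -0.55 with an adjusted p of 0.0837 over the 4 times. With the chip as a block *Slc7a10* was not called (adjusted p = 0.0914 as a random block and 0.345 as a fixed block), while *Ppp1r3c* and *Gjb6* were. Against saline alone, the vehicle of this drug, *Gjb6* and *Slc7a10* were not called (adjusted p = 0.0827 and 0.0994), and *Ppp1r3c* was.

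Mianserin changed *Sox9* and *Vim*. Its arrays shared 0 chips with same-time vehicle arrays at 2, 4 and 8 h, and 1 chip at 1 h. *Sox9* is the transcription factor that specifies glia and stays on in adult astrocytes. At 4 h the mianserin arrays held *Sox9* at 11.93, 12.66 and 12.03, against 12.96, 12.88 and 12.74 after saline and 13.02, 12.95 and 12.94 after Tween 80. The drug arrays lay below the vehicle arrays, replicate 2 by less than the others, and 1 naive array at that time was at 12.58.

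The change of *Sox9* at 4 h was -0.70 ± 0.17 (SE, n = 3 against 6), a 1.63-fold lower signal with an adjusted p of 0.01 in limma, at a time when 1.31% of all probes were called. At 1, 2 and 8 h it was -0.31, -0.15 and 0.32, none of them called. At 8 h the arrays held 12.42, 13.27 and 13.26, against vehicle arrays from 12.44 to 12.91, so that replicates 2 and 3 were above all vehicle arrays and replicate 1 was below them. Over the 4 times the adjusted p was 0.0104, and that for a difference between times was 0.0805. A difference between times was found for 0 of the 31 genes after mianserin and 0 after tranylcypromine, against 0.479% and 0.395% of all probes. A second probe of *Sox9* changed by -0.74 at 4 h, with an adjusted p over the times of 0.00318. After risperidone *Sox9* was at -0.07, -0.47, -0.28 and 0.45 (adjusted p = 0.136) and after tranylcypromine at -0.19, -0.41, -0.25 and 0.36 (adjusted p = 0.242), neither of them called.

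*Vim* after mianserin was 9.43, 9.43 and 9.22 at 4 h, against 9.02, 8.84 and 9.03 after saline and 9.01, 8.88 and 9.14 after Tween 80. At 8 h it was 9.18, 9.33 and 9.56, against vehicle arrays from 8.77 to 9.26. The groups did not overlap at 4 h and overlapped by 1 saline array at 8 h. The changes were -0.12, -0.10, 0.37 and 0.41, each with an SE of 0.12, and the adjusted p over the 4 times was 0.017, although neither 4 h (adjusted p = 0.118) nor 8 h (adjusted p = 0.0586) was called alone. The second, dimmer *Vim* probe, at percentile 16.1 of the array, differed from vehicle by -0.06 to -0.01. Without the arrays low in *Mt3*, *Vim* was not called for mianserin (0.31 at 8 h, adjusted p over the times = 0.143), and *Sox9* was. With the chip as a fixed block *Vim* was at 0.24 at 8 h and was not called (adjusted p = 0.51), while *Sox9* was called and *Gjb6* and *Fgfr3* were added. Against saline alone neither *Sox9* nor *Vim* was called (adjusted p = 0.0959 and 0.0686).

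Another 2 members were called at single times after mianserin. *Fgfr3*, a fibroblast growth factor receptor of astrocytes and their precursors, was at 9.87, 9.69 and 9.58 at 4 h, against 9.36, 9.08 and 9.07 after saline and 8.78, 9.16 and 9.55 after Tween 80. The change was 0.55 ± 0.15 (adjusted p = 0.0455 in limma), but the naive arrays at that time, 9.73, 9.68 and 9.55, overlapped with the drug arrays. A second, dimmer probe of *Fgfr3*, at percentile 49.4 of the array, differed from vehicle by 0.07. *Aldh1l1*, a folate enzyme widely used as an astrocyte marker, was at 10.05, 10.44 and 10.30 at 8 h, against 9.64, 9.78 and 9.96 after saline and 10.04, 9.70 and 10.03 after Tween 80. The change was 0.41 ± 0.11 (adjusted p = 0.0447), and a second, dimmer probe, at percentile 38.6, differed by 0.08. At that time 1.34% of all probes were called. Over the 4 times neither was called (adjusted p = 0.0805 and 0.124). Without the arrays low in *Mt3* the changes were 0.55 and 0.39, with an adjusted p over the times of 0.122 and 0.352. At 4 h after mianserin 4 genes did not overlap with vehicle, against 5.13% of all probes, and at 8 h 4 genes, against 6.1%.

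**Figure D4:**
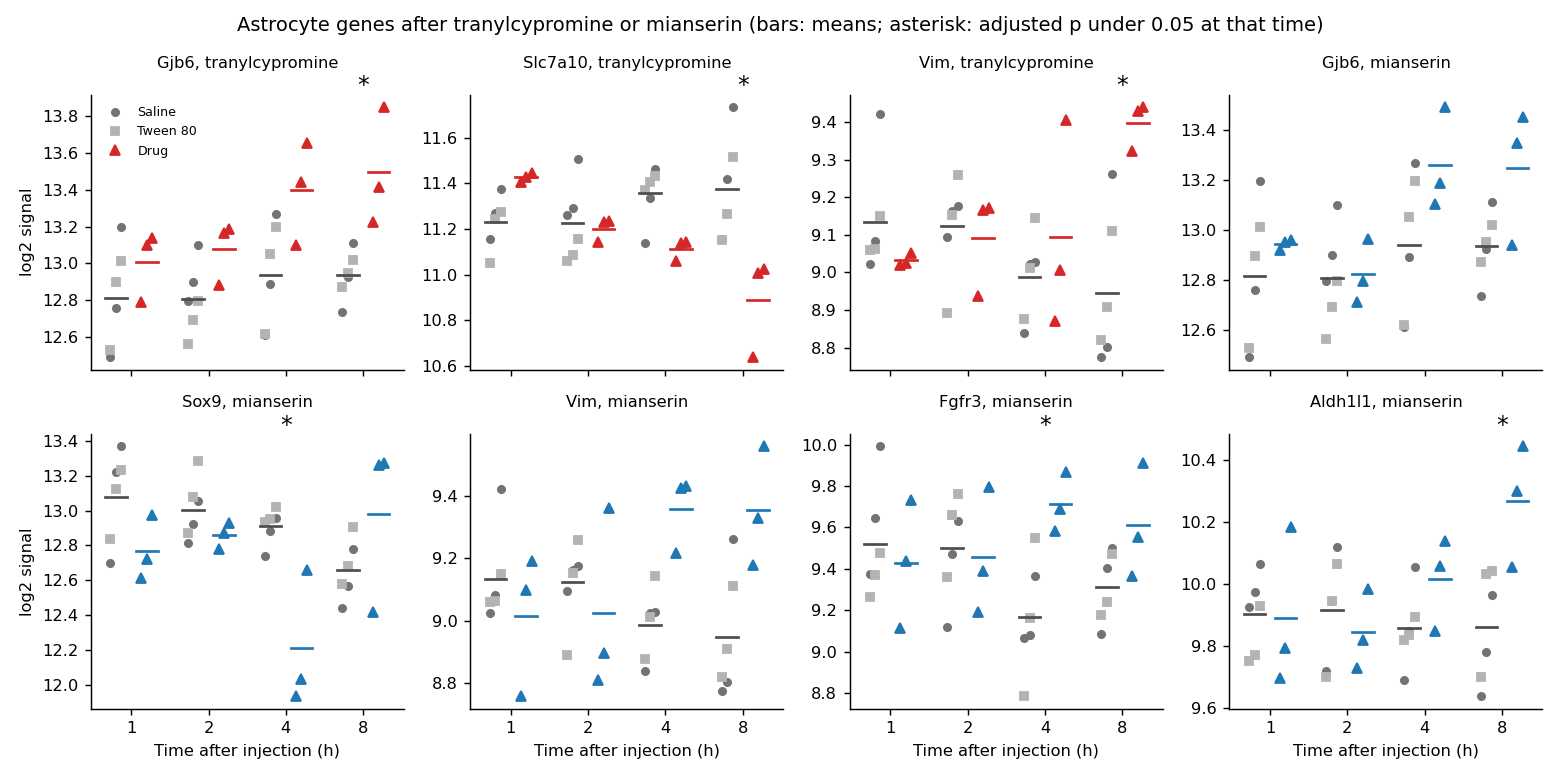
Each point is the log2 signal of 1 array by time after injection, for 8 pairs of gene and drug in the first chip set, with circles for saline, squares for Tween 80, triangles for the drug, bars at the means, and an asterisk where the adjusted p at that time was under 0.05. *Gjb6* and *Vim* lie above vehicle and *Slc7a10* below it at 8 h after tranylcypromine, and *Sox9* falls by 0.70 at 4 h after mianserin.

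The other members are given by role. The 6 genes of glutamate and amino acid handling ran from -1.05 (*Glul*) to 0.91 (*Slc7a10*) over the drugs and times, with 21 values past 0.5. *Glul* is glutamine synthetase, *Slc25a18* a mitochondrial glutamate carrier, and *Cbs* makes cystathionine from homocysteine. At 8 h after haloperidol *Glul* was 11.37, 10.66 and 10.33, against 12.60, 11.53 and 11.52 after saline and 11.83, 11.89 and 11.65 after Tween 80. All the haloperidol arrays were lower, and the change of -1.05 had an adjusted p of 0.232. These arrays lay on 3 chips whose median *Glul* over all treatments was 10.89, 10.74 and 9.99, and replicates 1 and 3 held the highest *Glul* of their chips. The change of *Sparcl1* at that time was also -1.05 (adjusted p = 0.189), with 12.95, 12.12 and 11.24 in the same arrays, on chips with medians of 12.38, 12.21 and 11.33. The part of the chip in these values was not tested. At that time 4 genes did not overlap with vehicle, against 4.24% of all probes.

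The 7 genes of water, ion and urea transport and gap junctions ran from -0.58 (*Gjb6* at 2 h after diazepam) to 0.74 (*Slc14a1*, the urea transporter, at 1 h after hydroxizine), with 6 values past 0.5. *Slc4a4*, the sodium bicarbonate cotransporter, ran from -0.46 to 0.50, *Atp1b2* from -0.38 to 0.27, and *Mlc1*, a membrane protein of astrocyte endfeet, from -0.15 to 0.25. The members of this group other than *Gjb6* were not called for any drug.

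The 6 genes of intermediate filaments and identity ran from -0.93 to 1.08. The lowest value was that of *S100b*, a calcium-binding protein, at 2 h after hydroxizine, and the highest that of *Ndrg2*, a cytoplasmic protein of astrocytes, at 4 h after diazepam. The 4 genes of energy and lipid metabolism ran from -0.60 (*Aldoc*, the brain aldolase) to 0.66 (*Acsbg1*, an acyl-CoA synthetase), with 9 values past 0.5, and *Apoe*, the lipid carrier of the brain, from -0.33 to 0.32. *Ppp1r3c* was the only one of these 4 that was called.

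Receptors, secreted and surface proteins held the widest changes, from -1.36 to 1.25, both of *Sparcl1* (hevin), an extracellular matrix protein that promotes synapse formation. In this group *Ntsr2*, a neurotensin receptor, ran from -0.43 to 0.38, *Entpd2*, an enzyme that degrades extracellular ATP, from -0.27 to 0.30, *F3*, tissue factor, from -0.12 to 0.57, and *Gpc5*, a glypican, from -0.48 to 0.57. Of the metal handling genes, *Slc39a12*, a zinc transporter, ran from -0.37 to 0.21, and *Mt3* from -0.82 at 8 h after bupropion to 0.29. *Mt3* was above vehicle in 6 of the 36 combinations. The arrays in its lower band held 0 saline arrays, and most of them lay on chips that carried no saline array.

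The drugs of the second chip set gave wide values and no calls. At 1 h after diazepam *Sparcl1* was 12.16, 10.10 and 9.88, against 8.56, 10.06 and 9.79 after saline. At 2 h it was 8.07, 9.62 and 10.38, against 9.82, 9.85 and 12.47, and at 4 h it was 9.99, 9.86 and 11.85, against 9.88, 9.87 and 8.46. In each of these groups 1 array stood far from the others, so that the changes of 1.25, -1.36 and 1.16 turned from time to time. The arrays near 12 were on 1 chip, whose 6 *Sparcl1* arrays ran from 11.35 to 12.47 in all treatments, and those near 8 on another, whose 6 arrays ran from 8.07 to 8.56. On the other 6 chips of this set the values lay between 9.53 and 10.61.

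*Ndrg2* was 14.17, 13.14 and 13.75 at 4 h after diazepam, against 12.73, 13.04 and 12.07 after saline, a change of 1.08. *Slc1a3* was 15.72, 15.49 and 15.51 at 2 h after diazepam, against 15.27, 15.27 and 15.09 after saline, and its adjusted p over the times of 0.272 was the lowest of any member for this drug. The groups did not overlap for either gene, and 11 of the 31 genes did not overlap at 2 h after diazepam, against 14.3% of all probes with 3 arrays on each side. Diazepam shared 0 chips with same-time saline arrays. At 2 h after hydroxizine 8 genes did not overlap (14% of all probes), and at 1 h after buspirone 8 genes (13.7%).

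The spread of some members was smaller within chips. With the chip as a term, the residual SD of *Sparcl1* went from 0.91 to 0.24 in the second chip set, that of *Glul* from 0.66 to 0.18, that of *Ndrg2* from 0.52 to 0.27 and that of *S100b* from 0.46 to 0.23. In the first chip set that of *Mt3* went from 0.55 to 0.34, that of *Gfap* from 0.54 to 0.37 and that of *Glul* from 0.52 to 0.25. The median residual SD of the 31 genes was 0.193 in the first chip set and 0.233 in the second, larger in the second for 22 of the 31 genes and for 82.7% of all probes.

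The saline arrays of the chip sets also differed in level for a few members. *Sparcl1* averaged 12.70 in the 12 saline arrays of the first chip set and 9.93 in the 12 of the second, and *Glul* 11.33 and 8.80. The second set minus the first was -1.53 for *S100b*, -1.42 for *Ndrg2* and -1.26 for *Slc7a10*. These 5 genes were over 1 lower and 0 were over 1 higher, against 2.57% and 0.0729% of all probes. By direction alone 16 genes were lower and 15 higher, and *Cbs*, 0.60 higher in the second set, was the only one whose arrays did not overlap. Mice, hybridization and chip set cannot be told apart here, and no drug was compared across the sets.

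**Figure D5:**
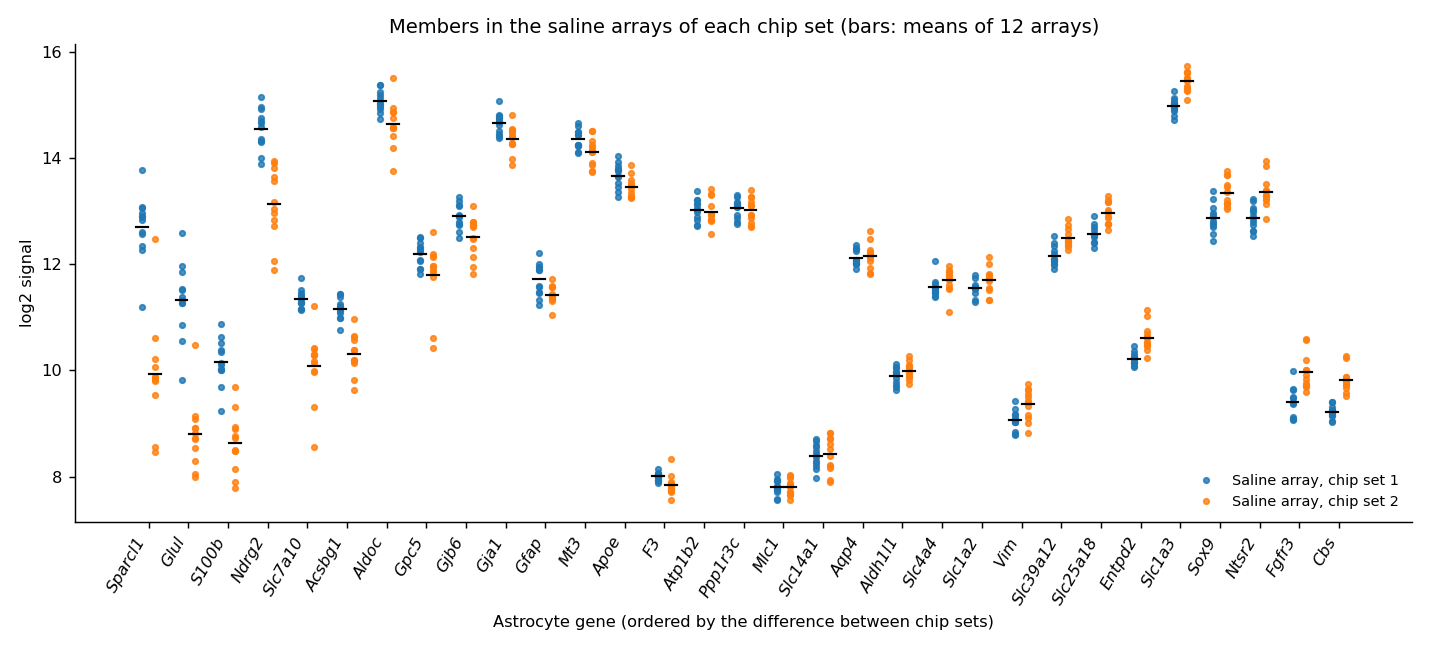
Each point is the log2 signal of 1 saline array, blue for the first chip set and orange for the second, with a black bar at the mean of 12 arrays, for the 31 astrocyte genes ordered by the difference. The means of *Sparcl1*, *Glul*, *S100b*, *Ndrg2* and *Slc7a10* lie more than 1 lower in the second set. The arrays of the sets overlap for every gene except *Cbs*.

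Injection, vehicle and time changed none of the genes past the threshold. For naive against vehicle 0 genes were called (0% of all probes), with 2 at an unadjusted p under 0.05 in limma, against 3.28% of all probes. For Tween 80 against saline 0 were called (0%), with 2 unadjusted against 5.06%. Over time in the vehicle arrays 0 were called in either chip set, against 0.583% and 0.011% of all probes, with 7 unadjusted in each, against 9.64% and 8.64%. *Glul* had the lowest adjusted p over time in the first chip set, 0.147. In a model of drug and time over all arrays of both sets, *Gjb6* and *Ppp1r3c* were called for drug (2.2% of all probes) and 0 genes for the interaction of drug and time (0.261%).

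Further genes of astrocytes were read from lists that were chosen with earlier results of these data known. The shares of all probes given beside them are therefore no test for an excess. Of 29 other astrocyte genes, 3 rose and 0 fell after tranylcypromine, 4 rose and 0 fell after mianserin, and 1 rose after risperidone, while 0 were called for the other drugs. Of all probes 1.21%, 1.71% and 0.758% were called with their largest change upward for these 3 drugs. *Pdk4*, the kinase that limits entry of pyruvate into the citric acid cycle, rose after all 3. At 4 h it was 9.98, 10.51 and 9.94 after tranylcypromine, 9.74, 9.86 and 9.88 after mianserin and 9.88, 9.74 and 9.95 after risperidone, against vehicle arrays from 9.15 to 9.48 with a median of 9.23. Every drug array was above every vehicle array. The adjusted p over the times was 6.92e-06, 0.00336 and 0.0384.

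*Htra1*, a secreted serine protease, was 12.97, 12.86 and 13.09 at 8 h after tranylcypromine and 13.16, 13.04 and 12.99 after mianserin, against vehicle arrays from 12.06 to 12.61 with a median of 12.18. Neither drug group overlapped with vehicle. The change was 0.69 after tranylcypromine (adjusted p = 5.6e-05) and 0.78 after mianserin (adjusted p = 2.02e-06). *Dio2*, which makes active thyroid hormone, rose by 1.01 at 2 h after tranylcypromine (adjusted p = 0.00425), *Mt2*, a metallothionein, by 0.96 at 2 h after mianserin (adjusted p = 0.0102), and *Id2*, an inhibitor of bHLH transcription factors, by 0.54 at 1 h after mianserin (adjusted p = 0.0286).

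Of 15 genes known from reactive astrocytes, 4 rose after tranylcypromine, against 1.21% of all probes, and 1 after risperidone, against 0.758%, and 0 were called for the other drugs. This list, too, was chosen with earlier results of these data known. *Serpina3n*, a serine protease inhibitor, was 11.35, 11.50 and 10.58 at 8 h after tranylcypromine, against vehicle arrays from 9.91 to 10.55, and its change was 0.89 (adjusted p = 4.35e-06). At 4 h after risperidone it was 11.10, 10.86 and 10.47, against vehicle arrays from 9.79 to 10.33, with a change of 0.76 (adjusted p = 0.00557). The small heat shock protein gene *Hspb1* was 9.67, 11.36 and 10.00 at 8 h after tranylcypromine, against vehicle arrays from 8.66 to 9.16. The cytokine receptor gene *Osmr* was 8.81, 10.19 and 8.91, against 8.42 to 8.74.

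For both *Hspb1* and *Osmr* replicate 2 stood above the others, and this is the array that also held the highest *Gjb6*. With it *Hspb1* changed by 1.49 and *Osmr* by 0.72 at 8 h, and without it by 0.98 and 0.28 (adjusted p over the times = 0.00555 and 0.00237). *Timp1*, a metalloproteinase inhibitor, changed by 0.39 (adjusted p = 0.0199), and without that array it was not called (adjusted p = 0.128). *Serpina3n* stayed called without it (adjusted p = 0.000455). *Gfap*, which is also counted among reactive genes, was not called beside them. Its change after tranylcypromine ran from -0.17 to 0.15, and its residual SD in the first chip set was 0.54, a wide spread. *Vim* was called at 8 h after this drug (0.45) but not over the 4 times, and its second probe was at -0.06.

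Some markers of other cells also changed. At 8 h the summed linear signal of 13 microglia genes was 15766 to 17544 after tranylcypromine and 15887 to 17512 after mianserin, against 19412 to 22945 in vehicle arrays. The sums did not overlap for either drug. How often such sums fail to overlap at other times or after other drugs is not given here. Of these genes 3 fell over the times after tranylcypromine, *Cx3cr1*, *P2ry12* and *Trem2*, and 1 after mianserin, *P2ry12*. Of 12 oligodendrocyte genes 2 fell after each drug, *Opalin* and *Aspa* after tranylcypromine and *Ugt8a* and *Aspa* after mianserin. Of all probes 0.373% were called with their largest change downward after tranylcypromine and 1.55% after mianserin. The oligodendrocyte sum at 8 h was 155849 to 192058 after tranylcypromine and 174750 to 181721 after mianserin, against 183462 to 192072. The sum of the 31 astrocyte genes was 222656 to 253528 and 227073 to 244088, against 230325 to 263290, and these ranges overlapped. Of 12 endothelial genes 3 were called after tranylcypromine, *Tek*, *Esam* and *Slc2a1*, 2 of them upward and 1 downward. After mianserin 1 rose, *Slc2a1*. Of 12 neuronal genes 1 rose after each drug, *Pdyn* after tranylcypromine and *Penk* after mianserin, and of 6 choroid plexus genes 0 were called. In either direction 1.59% and 3.26% of all probes were called for these drugs. After risperidone 2 endothelial genes were called, *Tek* and *Slc2a1*, 1 in each direction, and the oligodendrocyte gene *Aspa* fell. Of all probes 1.22% were called for risperidone. The genes of these other cell types were named after their values were seen. Over all arrays the mean signals of the defining astrocyte markers stood between percentiles 92.5 and 99.8 of all probes. The part of these other cells in the results above was not tested.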

How the data were processed

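Striatal RNA was hybridized to Illumina MouseWG-6 v2 arrays. The authors deposited a table of log2 signals that were not normalized between arrays, 1 column per array and 45281 probes, and a quantile normalized log2 table of the same arrays. The methods state that background was subtracted before normalization, and whether the first table holds signals before or after that step was not given in the sources used here. Only the first table entered the main analysis. It was quantile normalized over all arrays after 2 probes with missing values were left out, and 45279 probes were tested. GEO's platform annotation, which can be old, gave 1 symbol to 34883 probes, several to 18 and none to 10378. Of the 31 measured members 17 had 1 probe and 14 several, and the probe with the highest mean was used.

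Each chip set was fitted alone with group means of drug and time in limma 3.58.1 (lmFit, eBayes with a trend, R 4.3.3, statmod 1.5.0). Moderated F tests over the 4 times, tests of single times and of differences between times or drugs were adjusted over all probes by Benjamini-Hochberg at 5%. The methods describe a two-way analysis of variance of drug and time, and the same model was fitted in limma with 11 drug levels and chip set as a term. No z-scores were used except in an alternative. The number of arrays limits the precision, since bead counts were not used. Figures were drawn in Python 3.11.15 with matplotlib 3.10.9. The script was also run on simulated arrays with 200 changed probes, drawn with the fitted spread and without a chip effect.

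The members, the other gene lists and the alternatives were chosen with earlier results of these data known. Arrays were given in full for members called over the 4 times and for *Gfap*, *Aqp4*, *Slc1a2* and *Slc1a3*, members called at a single time were named with their change, and of the lists of other and reactive astrocyte genes the called genes were named, up to 6 for a drug. Alternatives were the authors' normalized table, median scaling, a background floor, chip as a block, each drug's own vehicle, vehicle arrays of both sets, 1 spread for all arrays, only probes above the median signal, the mean of all probes of a gene, robust moderation, the replicate block, the methods' t-test and each replicate left out. Leaving out the arrays low in *Mt3*, or the tranylcypromine array of replicate 2 at 8 h, was added after seeing the data. Replicate numbers did not pair the arrays: deviations from group means correlated at -0.00373 for the same number and at 0.00206 for other numbers, and at 0.235 for arrays of the same chip in the first chip set and 0.241 in the second.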

Additional observations from a re-analysis of the deposited data

Results flagged for a closer look

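Among the drugs of the first chip set, *Ppp1r3c* and *Gjb6* differed between drugs in limma's F test over the 4 times, with adjusted p-values of 9.25e-07 and 0.00188. For *Ppp1r3c* the change lay between 0.46 and 0.57 after tranylcypromine and between -0.07 and 0.29 after the other drugs, and for *Gjb6* between 0.20 and 0.56 after tranylcypromine, between 0.21 and 0.43 after risperidone and between -0.31 and 0.12 after bupropion.

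In the vehicle arrays at 2 h, *Aqp4* was 11.25 in Tween 80 replicate 2 while the others lay above it, up to 12.35, and this array is 1 of the 21 low in *Mt3*. In the vehicle arrays at 1 h, *Vim* was 9.42 in saline replicate 3 while the others lay between 9.02 and 9.15. Groups of vehicle arrays were searched for a sample that stands apart in 44 cases, and 2 were found, where chance gives about 1 in 20.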

How the results depend on the processing

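Counts below are of the 31 genes called, or of genes called at single times. *Ppp1r3c* after tranylcypromine was called under all 23 alternatives, with adjusted p up to 0.0388, *Gjb6* under 16 of 23 and *Slc7a10* under 8 of 23. *Sox9* after mianserin was called under 19 of 22, *Vim* under 11, *Fgfr3* over the 4 times under 4 and *Aldh1l1* under 0. Bupropion, buspirone, clozapine, haloperidol, naive, Tween 80 and time in the first chip set stayed at 0 throughout. The cause of the shifts was not tested.

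Median scaling left 1 gene for tranylcypromine, 0 for mianserin, 2 single-time calls in the first chip set, 1 difference between times, 0 differences among drugs and 0 genes in the model of drug and time, and *Slc1a3* at 1 h after mianserin turned to 0.15. Each drug's own vehicle alone gave 1, 0 and 3 single-time calls. The chip as a random or fixed block removed *Slc7a10* after tranylcypromine, and as a fixed block it removed *Vim* after mianserin and added *Gjb6* and *Fgfr3*. The random block gave risperidone 2 genes and the fixed block 4 (*Gjb6*, *Sox9*, *Fgfr3* and *Slc39a12*), with 6 single-time calls, 4 differences among drugs, 7 genes for drug (*Slc1a2* among them) and 1 for the interaction, and *Slc1a3* at 0.024. Testing only probes above the median gave 1 difference between times, as did the mean of all probes, which put *Slc1a2* at 2 h after mianserin at 0.017.

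With 1 spread for all arrays tranylcypromine had 1 gene, mianserin 1, the first set 5 single-time calls and 1 difference among drugs, while diazepam had 12 genes (*Slc1a2* and *Slc1a3* among them), hydroxizine 3, time in the second set 5, and that set 5 single-time calls, 16 differences between times and 2 among drugs. In this setting the second set shares the spread of the first. With vehicle arrays of both sets tranylcypromine had 1, mianserin 1, the first set 6 single-time calls and 1 difference among drugs, and diazepam 2 (*Slc7a10* and *Acsbg1*), with 1 single-time call, 3 differences between times and 1 among drugs in the second set.

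Leaving out 1 replicate gave 1 to 3 genes for tranylcypromine, 1 to 3 for mianserin, 0 to 1 for risperidone, 5 to 10 single-time calls, 0 to 1 differences between times and 1 to 2 genes for drug. Without tranylcypromine replicate 2 or saline replicate 3 only *Ppp1r3c* was called for tranylcypromine. Without mianserin replicate 1, saline replicate 3 or Tween 80 replicate 2 only *Sox9* was called for mianserin, without mianserin replicate 3 *Glul* and *Sparcl1* were called in place of *Sox9* and *Vim*, and without Tween 80 replicate 3 *Fgfr3* was added. Without saline replicate 1 *Gjb6* was called for risperidone. *Gfap* at 1 h after tranylcypromine ran from -0.46 to 0.41, above 0 without tranylcypromine replicate 1 (0.41) or Tween 80 replicate 1 (0.01), and at 0.16 without the arrays low in *Mt3*. Without those arrays mianserin had 1 gene and the first set 4 single-time calls, and without the tranylcypromine array of replicate 2 at 8 h that drug had 1. The methods' t-test gave 0 single-time calls in the first chip set after Benjamini-Hochberg.

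With the replicate number as a block in the first chip set, tranylcypromine kept 3 genes and mianserin 2, with 9 single-time calls, and the model of drug and time called the same 2 genes. The block changed no other call. The second chip set shares no replicate numbers between drug and saline, so no paired fit was made there.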
